A study of Homo sapiens with 8 samples.

Results

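The proteasome genes described here were chosen by name: every probe whose gene symbol began with PSMA, PSMB, PSMC, PSMD, PSME, PSMF or PSMG. The arrays held 48 such genes on 67 probes, of 16554 named genes on the array, and 47 of them had at least 1 probe that passed the filters, of 11207 named genes that did. PSMA8, an alpha subunit known from the testis, was not well above background in any of 8 channels and has no value. PSMC3IP, a recombination factor, and PSME3IP1, a partner of an activator, share only the name (log2 IP/T, explained below, of -0.31 ± 0.06 and -0.78 ± 0.13 in EV cells), so counts and medians below are over the remaining 45 genes.

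The cells were L1236, an established Hodgkin lymphoma line with high miR-155, and every group came from it. One population carried the empty retroviral vector pMSCV-PIG (EV). The other carried the vector with a sponge against miR-155, an RNA whose repeated binding sites compete with natural targets. GFP+ cells of each were sorted, and total RNA (T) and RNA pulled down through Argonaute 2 (Ago2), which carries microRNAs bound to their targets (IP), were hybridised. This gave 4 groups of 1 sample each, EV T, EV IP, sponge T and sponge IP, each labelled once in Cy3 and once in Cy5 and spread over 4 two-colour arrays on 1 slide, with IP and T of the same cells on the same array. With no second culture or precipitation, differences have no test here. The ± values are SDs over both dye orientations (IP/T and its change) or both dyes (sponge minus EV), and cover labelling and hybridisation only. EV and sponge RNA never shared an array, so array and cell population cannot be told apart.

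The proteasome is the barrel-shaped protease that destroys proteins tagged with ubiquitin. Its 20S core is built of outer alpha rings and inner beta rings that hold the cutting sites, and a 19S regulator of ATPases and non-ATPase subunits recognises, unfolds and feeds in the substrate. In immune cells and under interferon the cutting subunits are exchanged for immunoproteasome subunits, which favour peptides that fit MHC class I molecules, and the genes of the complex are known to be transcribed together.

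The microRNA that the sponge competes for is shown with its seed, bases 2 to 8, in capitals (RefSeq, GRCh38.p14, chr21:25573983-25574006, plus strand).
hsa-miR-155-5p: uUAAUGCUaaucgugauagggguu
Transcript sequences were not used here, so matches to this seed in proteasome transcripts were not counted.

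Proteasome transcripts were mostly under-represented in the Ago2 fraction of EV cells. The log2 IP/T ratio, the IP signal over the T signal of the same cells, had a median of -0.43 ± 0.13 over the 45 genes against -0.16 ± 0.03 over all 11207 named genes. IP/T was below 1 in both dye orientations for 33 of the 45 genes (73.3%), against 50.4% of all genes, and above 1 in both for 6 (13.3%), against 39.4%. Because both fractions were scaled to the same signal distribution, a ratio is relative to the typical transcript and says nothing of total RNA yield. Proteasome probes were bright, and 65 of the 67 were kept, each well above background in all 8 channels. Brightness moved with the choice of genes: the median of mean log2 signal was 14.12 against 10.47 over all genes. Among the 3291 other genes at or above 11.92, the 10th percentile of the proteasome genes, the median log2 IP/T in EV was -0.07, and 48.0% had IP/T below 1 in both orientations. Another scaling (normexp with loess and Aquantile) moved the EV median of all genes to -0.01 and that of the proteasome genes to -0.31, so their distance from all genes was -0.30 against -0.27.

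Few proteasome genes reached 2-fold enrichment, and fewer reached 2-fold depletion in sponge than in EV cells. At 2-fold, 12 of the 45 (26.7%) had IP/T of at most 0.5 in EV, against 18.7% of all genes, and 1, PSMB1, had IP/T of at least 2, against 18.1%. In sponge cells 3 genes (6.67%) had IP/T of at most 0.5, against 17.4%, and 2 (4.44%) had at least 2, against 17.7%. The median log2 IP/T in sponge was -0.28 ± 0.15 against -0.14 ± 0.04 over all genes, and 25 of the 45 (55.6%) were below 1 in both orientations, against 48.1%, and 8 (17.8%) were above 1, against 38.8%. The genes kept their order between the populations: Pearson's r of log2 IP/T in EV against sponge was 0.97 across the 45 genes, a description over genes that share a slide and a normalization. The SD between the 45 genes was 0.66 in EV, against 1.17 between all genes and 1.25 between the other genes of high signal, and the median SD of a single gene over the orientations was 0.16.

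**Figure D1:**
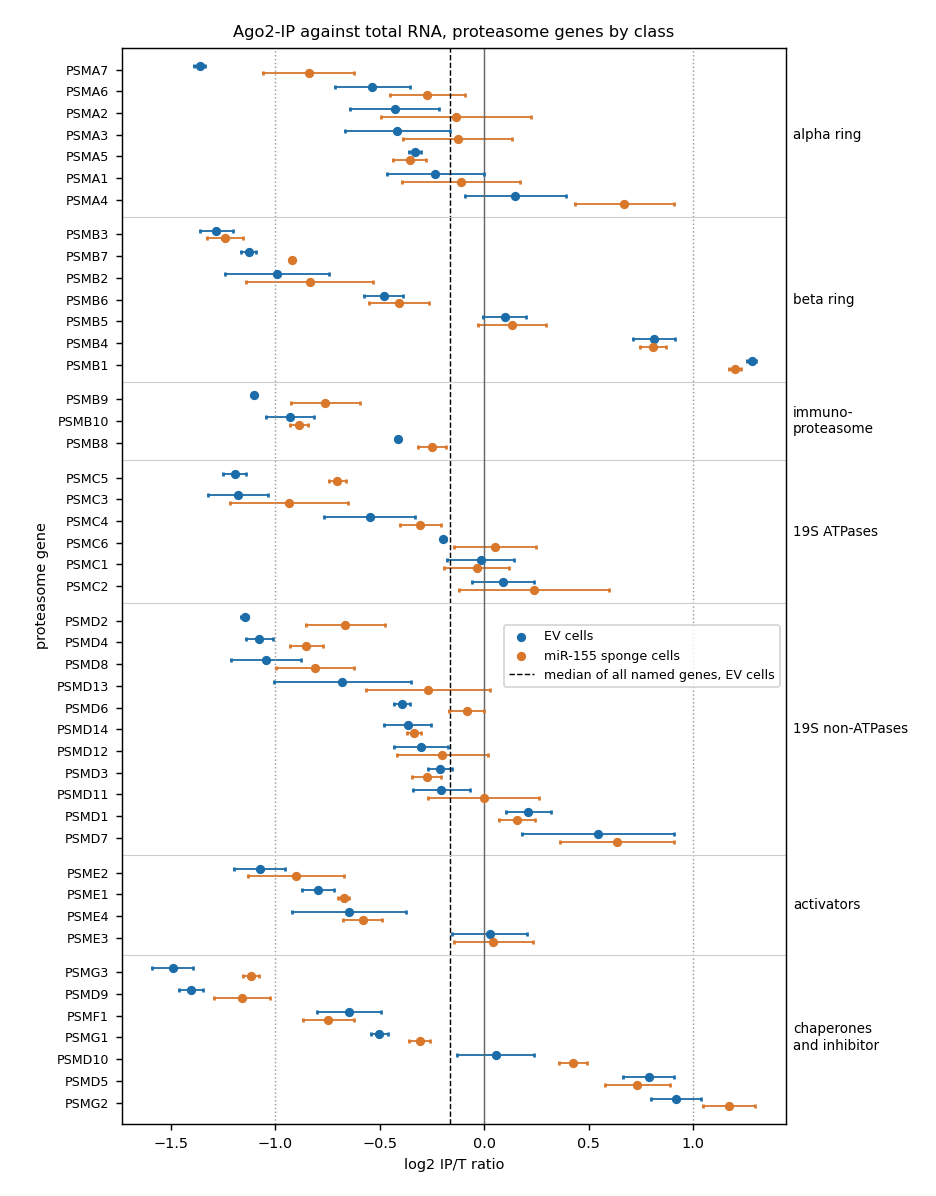
Log2 IP/T ratio of 45 proteasome genes (rows, grouped by class and ordered by the EV value) in EV cells (blue) and miR-155 sponge cells (orange). Points are means of the 2 dye orientations and bar ends the single orientations; dotted lines mark 2-fold and the dashed line the median of all named genes in EV cells (-0.16). Most points lie left of 0, and 11 genes lie to the right in EV cells, with PSMB1, PSMG2, PSMB4, PSMD5 and PSMD7 the farthest.

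The 20S core held the highest ratio of the 45 genes, that of PSMB1, and widely spread others. Over its 14 genes the median log2 IP/T in EV was -0.42 ± 0.23, with a range from -1.36 to 1.28. The 7 detected alpha ring genes, whose products form the outer rings and the gate, had a median of -0.42 ± 0.30. Of these, 6 (85.7%) were below 1 in both orientations, against 50.4% of all genes. PSMA7 was the lowest alpha ring gene. Its log2 signal in EV cells was 15.56 in Cy3 and 15.45 in Cy5 in T and 14.12 and 14.17 in IP. In sponge cells it was 15.47 and 15.10 in T and 14.48 and 14.41 in IP. The IP signal was below the T signal in every channel of both populations, giving a log2 IP/T of -1.36 ± 0.04 in EV and -0.84 ± 0.31 in sponge. PSMA4 was the highest alpha gene. It read 14.83 and 14.44 in T and 14.83 and 14.74 in IP of EV cells, and 14.64 and 14.22 in T and 15.13 and 15.08 in IP of sponge cells. Its EV ratio of 0.15 ± 0.34 was within the spread of the orientations, and its sponge ratio of 0.67 ± 0.34 was above it. PSMA1 (-0.23 ± 0.33), PSMA2 (-0.43 ± 0.30), PSMA3 (-0.42 ± 0.36), PSMA5 (-0.33 ± 0.04) and PSMA6 (-0.54 ± 0.26) lay between them in EV cells.

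The beta ring, which carries the cutting sites inside the barrel, was split most widely. Its 7 genes had a median log2 IP/T in EV of -0.48 ± 0.13. PSMB1, a beta subunit without a cutting site, was the only proteasome gene at or above 2-fold in EV at the brightest probes. It read 16.43 and 16.39 in T against 17.69 and 17.69 in IP of EV cells, and 16.54 and 16.50 in T against 17.73 and 17.72 in IP of sponge cells. IP was above T in all channels with no overlap, a log2 IP/T of 1.28 ± 0.03 in EV and 1.201 ± 0.04 in sponge (2.43-fold and 2.30-fold). The other kept PSMB1 probe was below 2-fold in EV, at 0.87 (1.83-fold), and at 1.05 in sponge. PSMB3, another subunit without a cutting site, stood at the other end. Its signals were 13.92 and 13.77 in T against 12.40 and 12.72 in IP of EV cells, and 14.05 and 13.73 in T against 12.57 and 12.72 in IP of sponge cells. The ratio was -1.28 ± 0.11 in EV and -1.24 ± 0.12 in sponge. The proteins of PSMB1 and PSMB3 sit in the same ring, with transcripts beyond 2-fold in opposite directions in EV at the brightest probes. PSMB4, also without a cutting site, was enriched in EV at 0.82 ± 0.14.

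The cutting subunits of the ordinary core had unequal ratios. The ratio of PSMB5, the chymotrypsin-like subunit that the drug bortezomib binds, was 0.10 ± 0.14 in EV, within its spread. PSMB6, the caspase-like subunit, was at -0.48 ± 0.13 and PSMB7, the trypsin-like subunit, at -1.13 ± 0.05. PSMB2, which like PSMB1, PSMB3 and PSMB4 has no cutting site, was at -0.99 ± 0.35.

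The 3 kept immunoproteasome subunits were all below 1 in both orientations and in both populations, against 50.4% of all genes in EV and 48.1% in sponge. The median log2 IP/T of these subunits in EV was -0.93 ± 0.16, and each can be set against the subunit it replaces. PSMB9, which takes the place of PSMB6, read 16.19 and 16.09 in T against 15.00 and 15.07 in IP of EV cells, and 16.18 and 15.83 in T against 15.24 and 15.25 in IP of sponge cells. Its ratio was -1.10 ± 0.01 in EV and -0.76 ± 0.23 in sponge. PSMB10, which takes the place of PSMB7, read 15.40 and 15.31 in T against 14.50 and 14.35 in IP of EV cells, and 15.42 and 15.32 against 14.48 and 14.49 in sponge cells. The ratio of PSMB10 was nearly the same in both populations, -0.93 ± 0.16 and -0.89 ± 0.06. PSMB8, which takes the place of PSMB5, read 14.61 and 14.54 in T against 14.13 and 14.20 in IP of EV cells, and 14.42 and 14.39 against 14.21 and 14.10 in sponge cells. It was the least depleted, at -0.41 ± 0.00 in EV and -0.25 ± 0.10 in sponge. The EV ratios of PSMB8 and PSMB9 lay below those of PSMB5 and PSMB6 by more than the spread over orientations, while PSMB10 and PSMB7 were both near -1. That spread does not cover differences between probes, which reached 1.26 between probes of the same gene (PSMF1). The probes of the cutting subunits were all well above background in T, so L1236 cells held transcripts of both the ordinary and the immune cutting subunits. PSMB11, the thymus subunit, was not among the matched probes.

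Neighbours of the immune subunits were read beside them. TAP1, the peptide transporter gene that lies head to head with PSMB9, was depleted in EV at -0.77 ± 0.07 (log2 IP/T). IRF1, an interferon-induced activator of these genes, was the opposite, at 2.16 ± 0.06. TAP2, the partner of TAP1, was a dim probe (mean log2 signal 7.23) at -0.97 ± 0.13.

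The 19S regulator was nearly as depleted as the core. Over its 17 genes the median log2 IP/T in EV was -0.37 ± 0.07, and 13 (76.5%) were below 1 in both orientations, against 50.4% of all genes. Of the 6 ATPases, which unfold the substrate, PSMC5 was lowest. It read 12.24 and 12.18 in T against 10.93 and 11.10 in IP of EV cells, and 11.90 and 11.80 against 11.05 and 11.23 in sponge cells. The ratio of -1.20 ± 0.08 in EV was followed by -0.70 ± 0.06 in sponge, values whose orientations did not overlap. PSMC2 was highest, with 13.97 and 13.73 in T against 13.97 and 13.92 in IP of EV cells, and 14.04 and 13.53 against 14.13 and 13.92 in sponge cells. Its ratios of 0.09 ± 0.21 and 0.24 ± 0.51 were within their spread. PSMC3 (-1.18 ± 0.21) and PSMC4 (-0.55 ± 0.31) were low in EV as well, PSMC6 was at -0.20 ± 0.02, and PSMC1 was at -0.02 ± 0.23.

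Among the 11 non-ATPase subunits, 9 (81.8%) were below 1 in both orientations in EV, against 50.4% of all genes. PSMD2, a scaffold that docks ubiquitin receptors, was the lowest. Its signal was 12.61 and 12.49 in T against 11.36 and 11.44 in IP of EV cells, and 12.35 and 12.07 against 11.60 and 11.49 in sponge cells. The ratio was -1.15 ± 0.02 in EV and -0.66 ± 0.27 in sponge. PSMD7, the partner of the deubiquitinase PSMD14, was the highest, with 14.89 and 14.57 in T against 15.48 and 15.07 in IP of EV cells, and 14.97 and 14.60 against 15.51 and 15.34 in sponge cells. Its ratio of 0.55 ± 0.52 in EV was positive in both orientations, with a wide spread. The ubiquitin receptor PSMD4 (-1.08 ± 0.09) and PSMD8 (-1.04 ± 0.24) were also at or below 0.5-fold, and the other 7 lay between -0.68 and 0.21: PSMD13, PSMD6, PSMD14, PSMD12, PSMD3, PSMD11 and PSMD1.

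The alternative activators, caps that open the core without ATP, had a median log2 IP/T in EV of -0.72 ± 0.25 over 4 genes. PSME2, which with PSME1 forms the interferon-induced cap, was the lowest, at 17.25 and 17.02 in T against 16.07 and 16.06 in IP of EV cells, and 17.31 and 17.01 against 16.34 and 16.18 in sponge cells. Its ratio was -1.08 ± 0.18 in EV and -0.90 ± 0.33 in sponge, and PSME1 was at -0.79 ± 0.11 in EV. PSME3, the nuclear cap, was highest, with 11.90 and 12.10 in T against 11.94 and 12.11 in IP of EV cells, and 11.68 and 11.92 against 11.77 and 11.91 in sponge cells. T and IP of PSME3 overlapped, and its ratio of 0.03 ± 0.26 was within the spread. PSME4, a large cap known from sperm, was at -0.65 ± 0.39.

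The 6 assembly chaperones and the inhibitor ranged from -1.49 to 0.92 in log2 IP/T in EV. PSMG3, which helps build the alpha ring, was the lowest proteasome gene measured at its brightest probe. It read 13.63 and 13.66 in T against 12.06 and 12.24 in IP of EV cells, and 13.51 and 13.30 against 12.22 and 12.36 in sponge cells. That is a log2 IP/T of -1.49 ± 0.14 in EV and -1.12 ± 0.06 in sponge. PSMG2, which also builds the alpha ring, as a pair with PSMG1, was the highest of its class. It read 11.83 and 11.95 in T against 12.75 and 12.87 in IP of EV cells, and 11.85 and 11.95 against 13.00 and 13.14 in sponge cells. IP was above T in every channel, with a ratio of 0.92 ± 0.17 in EV and 1.17 ± 0.18 in sponge, while its partner PSMG1 was at -0.50 ± 0.06 in EV. Of the chaperones of the 19S base, PSMD5 was at 0.79 ± 0.17, PSMD10 at 0.06 ± 0.26 and PSMD9 at -1.40 ± 0.08. PSMF1, the inhibitor, was at -0.65 ± 0.22. PSMG4 was not among the matched probes. A second PSMD5 probe, well above background in 6 channels, was removed because its dyes differed by more than 2-fold.

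Different probes of the same gene usually gave the same ratio. Of 17 comparisons of another probe with the brightest one, over 13 genes, 11 lay within 0.25 in log2 IP/T in EV, with a median distance of 0.19, and both PSMB1 probes were enriched (1.28 and 0.87). In 3 comparisons the distance was over 1. The second PSME1 probe gave -1.90 against -0.79, and the second PSMF1 probe -1.91 against -0.65. For PSME3 the brightest probe, designed on 1 transcript record, gave 0.03, a further probe of that record gave 0.05, and a probe designed on another record gave -1.18. A second PSMD9 probe gave -0.44 against -1.40. Class medians and the ratios of these 4 genes therefore hold for the brightest probe; which transcripts each probe detects was not tested.

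**Figure D2:**
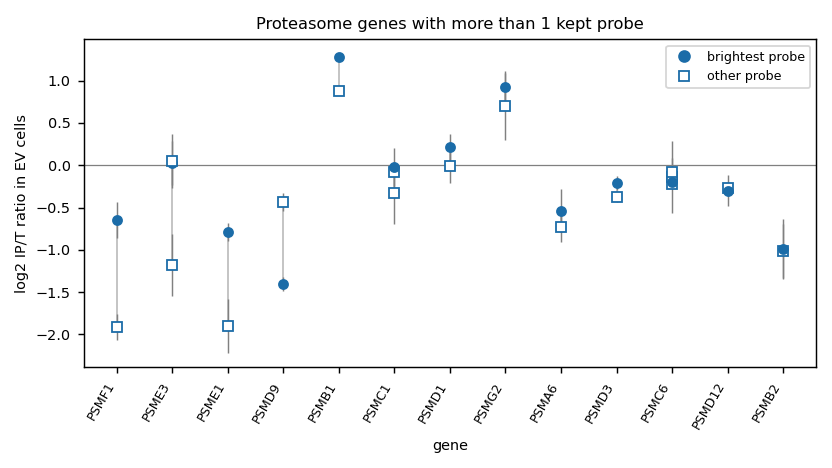
Log2 IP/T in EV cells at each kept probe of the proteasome genes with more than 1, with the brightest probe filled, other probes open, and bars for the SD over the 2 dye orientations. Genes are ordered by the distance between their probes. PSMF1, PSME3, PSME1 and PSMD9 on the left are spread by 0.97 to 1.26, while the PSMB2 probes at the right nearly coincide.

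Total RNA of proteasome genes was close to equal in sponge and EV cells. The median log2 sponge minus EV in T was -0.06 ± 0.07 over the 45 genes, against -0.01 over all genes. It was lower in sponge in both dyes for 21 of 45 (46.7%), against 31.9% of all genes, and higher in both for 9, against 29.3%. The difference lay mostly in 1 dye: the median was -0.11 in Cy5 and 0.00 in Cy3, and detection was poorest in the Cy5 channel of sponge T (54.1% of spots well above background, other channels 61.0% to 65.7%). Its part in the result was not tested. At a 1.2-fold change with the same sign in both dyes, 2 genes (4.44%) were lower in sponge T, against 7.17% of all genes and 2.34% of the other genes of high signal, and 0 were higher, against 7.69% and 3.25%. The 2 were PSMC5, lower by 1.29-fold (-0.36 ± 0.03), and PSMD2, lower by 1.27-fold (-0.34 ± 0.11). PSMG3 followed at -0.24 ± 0.17. These are values of the brightest probes, and the PSME3 probe of the other transcript record also passed the limit (-0.30 ± 0.03). Among the genes higher in T in both dyes, PSMB1 led with 0.11 ± 0.00, followed by PSMD1 at 0.08 ± 0.04 and PSMD3 at 0.08 ± 0.03. PSMD1 read 14.59 and 14.46 in EV T and 14.64 and 14.57 in sponge T, with 14.78 and 14.69 in EV IP and 14.81 and 14.71 in sponge IP. PSMD3 read 14.16 and 14.07 in EV T and 14.26 and 14.12 in sponge T, with 13.91 and 13.89 in EV IP and 13.91 and 13.92 in sponge IP. At PSMB1 this was 1.08-fold. The direction depended on the probe: the other kept probe was lower in T in both dyes for PSMB1 (-0.09 ± 0.08) and PSMD3 (-0.14 ± 0.02), and its dyes disagreed for PSMD1 (SD 0.17). In bulk RNA a smaller share of cells with a transcript and less of it per cell cannot be told apart.

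In the Ago2 fraction most proteasome genes were slightly higher in sponge cells. The median log2 sponge minus EV in IP was 0.13 ± 0.02 against 0.00 over all genes and 0.02 over the other genes of high signal. The IP signal was higher in sponge in both dyes for 33 of 45 (73.3%), against 37.5% of all genes, and lower in both for 4 (8.89%), against 36.4%. Among the other genes of high signal these shares were 44.1% and 37.3%. The differences were small. At 1.2-fold, 5 genes (11.1%) were higher in IP, against 7.91% of all genes, and 0 were lower, against 7.68%. The 5 were PSMA2, PSMA4, PSMA7, PSMC4 and PSMD13. At the brightest probes PSMC4 led with 0.32 ± 0.12 (1.25-fold), followed by PSMA4 with 0.32 ± 0.03 and PSMA7 with 0.30 ± 0.09. Another probe passed the same limit for PSME1 (0.33 ± 0.05) and for PSMG2 (0.29 ± 0.00). PSMC4 read 11.88 and 11.62 in EV IP and 12.12 and 12.03 in sponge IP, with 12.39 and 12.21 in EV T and 12.43 and 12.33 in sponge T. Among the genes lower in both dyes, the lowest were PSME3 at -0.18 ± 0.02, PSMF1 at -0.16 ± 0.03 and PSMB5 at -0.10 ± 0.03. PSMF1 read 11.27 and 11.17 in EV IP and 11.13 and 10.99 in sponge IP, with 11.97 and 11.77 in EV T and 11.86 and 11.75 in sponge T. PSMB5 read 14.65 and 14.61 in EV IP and 14.58 and 14.49 in sponge IP, with 14.61 and 14.45 in EV T and 14.52 and 14.28 in sponge T. At these probes the 3 were also lower in T, and the change in log2 IP/T was 0.02 ± 0.01 for PSME3, 0.03 ± 0.08 for PSMB5 and -0.10 ± 0.04 for PSMF1, the lowest of the 45. Other probes went the opposite way in IP: the second PSMF1 probe was at 0.15 ± 0.08, with a change in log2 IP/T of 0.37 ± 0.14, and the PSME3 probe of the other transcript record was at 0.15 ± 0.13, with a change of 0.45 ± 0.16. The third PSME3 probe had a change of -0.24 ± 0.09.

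The depletion from the Ago2 fraction was milder in sponge cells than in EV cells. The change in log2 IP/T had a median of 0.17 ± 0.08 against 0.01 over all genes and 0.02 over the other genes of high signal. It was positive in both orientations for 30 of the 45 (66.7%), against 33.6% of all genes, and negative in both for 6 (13.3%), against 29.8%. Among the other genes of high signal these shares were 39.1% and 29.9%. At 1.2-fold, 11 (24.4%) were higher in sponge, against 10.0% of all genes, and 0 were lower, against 8.71%. The 11 were PSMA2, PSMA3, PSMA4, PSMA7, PSMB9, PSMC5, PSMD2, PSMD6, PSMD10, PSMD13 and PSMG3, which come from the alpha ring, the immunoproteasome, the ATPases and non-ATPases of the 19S regulator and the chaperones. At the brightest probes no constitutive beta gene and no alternative activator was among them. However, another probe passed the same limit for PSMB2 (0.27 ± 0.10), PSME1 (0.47 ± 0.18) and PSME3 (0.45 ± 0.16). So did another probe of PSMC6 (0.30 ± 0.08), PSMF1 (0.37 ± 0.14) and PSMG2 (0.42 ± 0.07). By class, the median change was 0.29 ± 0.02 in the alpha ring, 0.24 ± 0.20 in the ATPases, 0.20 ± 0.02 in the non-ATPases, 0.24 ± 0.04 in the chaperones and inhibitor, 0.16 ± 0.08 in the immunoproteasome, 0.09 ± 0.11 in the activators and 0.04 ± 0.07 in the beta ring. In 15 genes (33.3%) sponge cells had lower T and higher IP signal in both dyes, against 8.70% of all genes, and 0 the other way, against 5.68%. The EV and sponge arrays enter every one of these changes, so an offset of any array would appear in all of them. Sponge T in Cy5, the channel with the poorest detection, enters the orientation with IP in Cy3. In that orientation the median change was 0.21, against 0.10 in the other, and the part of this channel was not tested.

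**Figure D3:**
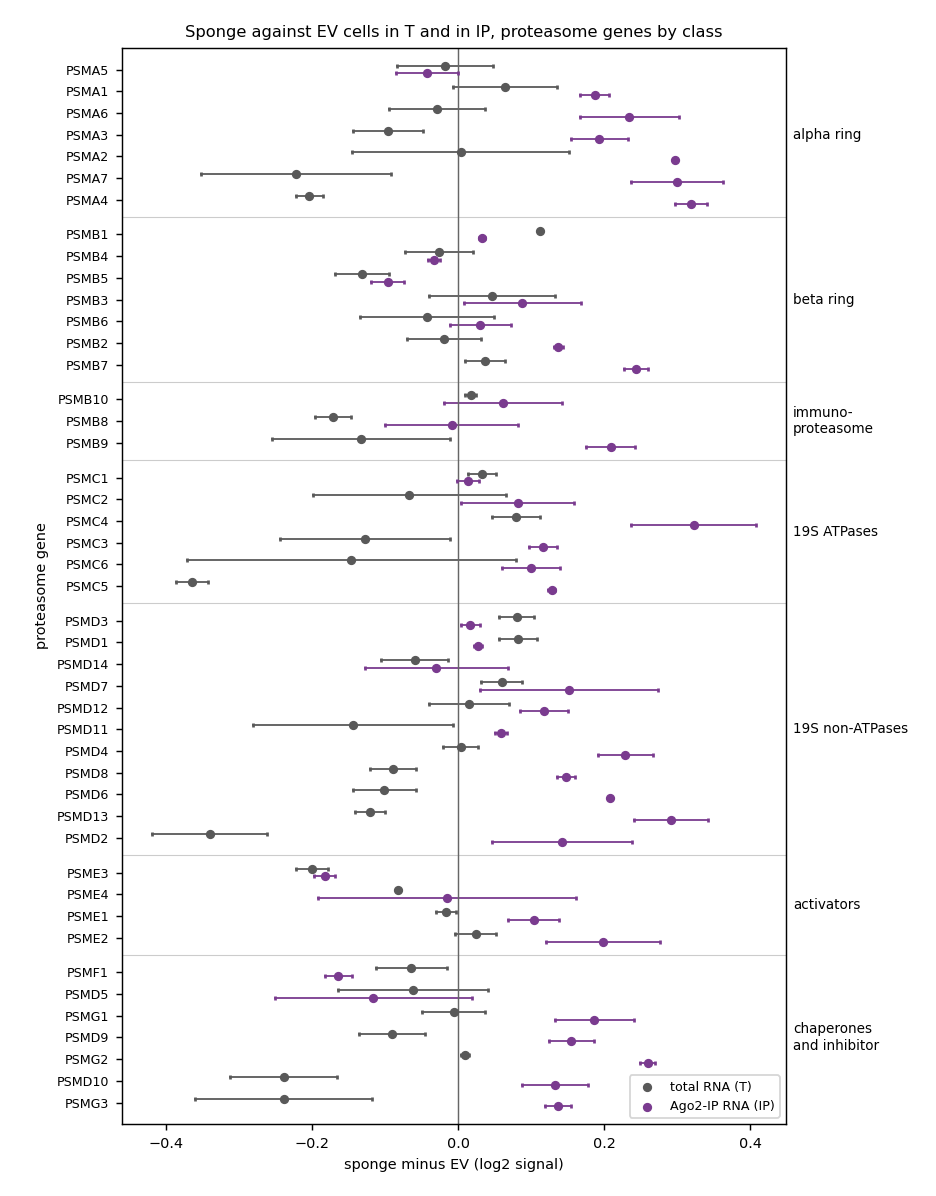
Sponge minus EV (log2 signal) of 45 proteasome genes in total RNA (grey) and in Ago2-IP RNA (purple), grouped by class and ordered by the change in IP/T. Points are means over Cy3 and Cy5 and bar ends the single dyes. Most purple points lie right of 0 and most grey points near or left of it; PSMC5 and PSMD2 are the lowest in T.

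**Figure D4:**
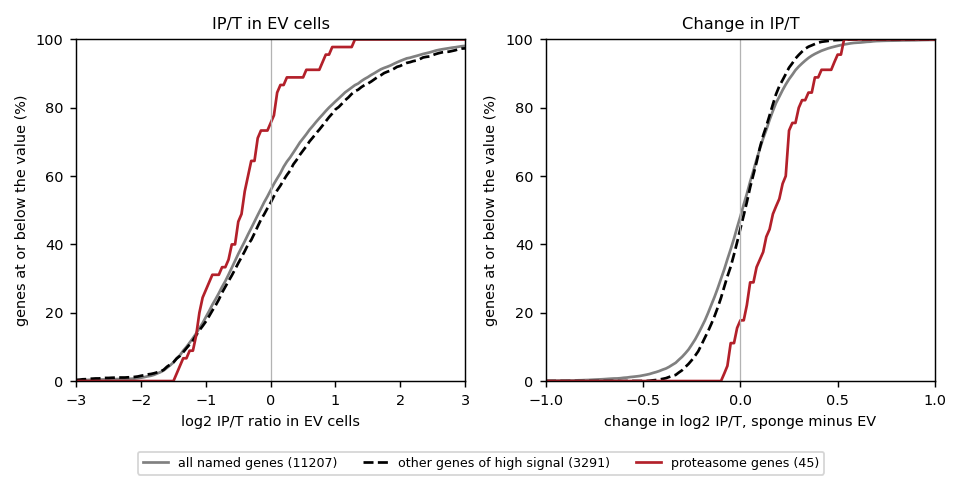
Cumulative share of genes (%) by log2 IP/T in EV cells (left) and by the change in log2 IP/T from EV to sponge (right), for 45 proteasome genes (red), all 11207 named genes (grey) and 3291 other genes of high signal (dashed). The red curve lies left of the others between about -1 and 0 on the left panel, with a median of -0.43, and right of them on the right panel, with a median of 0.17.

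Genes that work with the proteasome came from a list of 25, of which 23 had a kept probe. They were nearer to all genes in EV log2 IP/T and in sponge minus EV in T. In sponge minus EV in IP and in the change in IP/T they were nearer to the proteasome genes. Their median log2 IP/T in EV was -0.13 ± 0.05, and 12 were below 1 in both orientations (52.2%), close to the share of all genes. The maturation factor POMP was at -1.19 ± 0.51 and the ubiquitin receptor ADRM1 at -1.35 ± 0.08. The deubiquitinase USP14 was enriched at 1.195 ± 0.02, and SEM1, a small subunit of the 19S lid without a PSM name, at 0.65 ± 0.04. NFE2L2, an oxidative stress factor that can raise proteasome genes, was the most enriched at 3.94 ± 0.05, while NFE2L1, which drives them when the proteasome is inhibited, was at -0.68 ± 0.11. In sponge cells NFE2L1 was higher in T by 0.27 ± 0.02. At 1.2-fold, 0 of the 23 were higher and 0 lower in IP. The list's median sponge minus EV in T was -0.0003 ± 0.06 (proteasome genes -0.06, all genes -0.01). In IP it was 0.10 ± 0.03 (proteasome genes 0.13, all genes 0.00). Its median change in log2 IP/T was 0.11 ± 0.07 (proteasome genes 0.17, all genes 0.01).

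The regions upstream of the genes were compared for short motifs, since the genes are known to be controlled together. RefSeq windows of 250 bases before the start site (GRCh38.p14) were held for 39 of the 45 genes and for 27305 genes in all; a gene counted if any of its windows had the motif on either strand. The ETS core CGGAAG was found for 21 of the 39 (53.8%), against 19.4% of all genes, and the SP1 box GGGCGG for 25 (64.1%), against 46.2%. The NF-Y box CCAAT was found for 18 (46.2%), against 37.0%. The antioxidant response core TGACNNNGC, which NFE2L1 and NFE2L2 bind, was found for 13 (33.3%), against 13.2%, and the interferon response core (a pair of GAAA runs with a short gap) for 4 (10.3%), against 3.71%. None of these motifs contains another, and a match is a description of letters. The 27305 genes were every symbol with a window, non-coding ones such as PSMB8-AS1 included, whether or not these arrays detected them. Motif shares among detected genes only were not computed. Shown here, with all motif matches in capitals, are the windows of PSMA4, which had the largest change in IP/T, of PSMC5 and PSMD2, which were lowest in sponge T, and of the immunoproteasome gene PSMB9. Where a gene has several windows the first listed is given.
PSMA4, chr15:78540155-78540404, plus strand: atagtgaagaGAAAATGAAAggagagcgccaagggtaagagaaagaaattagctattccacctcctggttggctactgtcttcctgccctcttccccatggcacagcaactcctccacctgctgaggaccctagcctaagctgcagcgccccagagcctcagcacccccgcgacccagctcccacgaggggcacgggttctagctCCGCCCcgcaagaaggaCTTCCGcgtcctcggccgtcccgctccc
PSMC5, chr17:63827181-63827430, plus strand: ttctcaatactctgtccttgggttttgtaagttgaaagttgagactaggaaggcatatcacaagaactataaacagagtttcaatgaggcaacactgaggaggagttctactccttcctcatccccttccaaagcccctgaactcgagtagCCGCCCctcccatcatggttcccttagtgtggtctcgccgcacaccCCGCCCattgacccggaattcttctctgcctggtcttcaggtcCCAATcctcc
PSMD2, chr3:184298991-184299240, plus strand: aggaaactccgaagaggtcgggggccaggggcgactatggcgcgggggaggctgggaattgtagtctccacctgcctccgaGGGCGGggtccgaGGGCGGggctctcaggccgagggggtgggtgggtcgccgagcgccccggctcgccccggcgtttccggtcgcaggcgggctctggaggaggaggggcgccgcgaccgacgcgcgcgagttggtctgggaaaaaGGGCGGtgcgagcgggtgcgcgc
PSMB9, chr6:32853942-32854191, plus strand: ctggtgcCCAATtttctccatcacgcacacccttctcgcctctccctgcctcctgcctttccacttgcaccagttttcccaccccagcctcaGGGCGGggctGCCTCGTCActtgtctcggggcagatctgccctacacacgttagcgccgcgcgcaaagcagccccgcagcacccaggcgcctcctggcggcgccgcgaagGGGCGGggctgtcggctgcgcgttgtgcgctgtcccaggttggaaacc
In the windows shown, PSMA4 held an interferon response core at the far end and an SP1 box and an ETS core near the start. The shown windows of PSMC5 and PSMD2 held SP1 boxes, with a CCAAT box near the start of PSMC5. In windows not shown, PSMA4 also had a CCAAT box and an antioxidant response core, and PSMC5 an antioxidant response core. PSMB9 held SP1 boxes, a CCAAT box and an antioxidant response core, and its start lies 488 bases from that of TAP1 on the other strand.

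The identity of the cells was read from marker lists. All 9 Hodgkin line markers were kept, among them TNFRSF8, the CD30 gene. Of 6 mature B cell genes that such lines usually lack, MS4A1 and SPI1 were not well above background in any channel and the other 4 were kept. Of 6 T cell and monocyte markers only CD14 was kept; CD3D, LYZ and CD68 were not above background in any channel, and CD2 and CD3E were detected but failed the dye filter.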

How the data were processed

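Per the file headers, the authors extracted 1 processed intensity per spot and channel, background-subtracted and dye-normalized, with Agilent Feature Extraction (10.7.3.1 in the headers, 10.5.1.1 in the submitters' notes). The 8 deposited scanner files were 4 arrays given under both of their labels, and each sample's own dye was read. The deposited series table held the authors' normalized log2 values and served as an alternative. Here, outlier spots were left out, log2 intensity was quantile normalized over the 8 channels, and probes were kept when well above background in at least 4 channels and within 2-fold between dyes in each sample, after the study's methods: 22479 of 41000 probes. No spot was saturated. Accessions gave a symbol to 69.5% of kept probes through the RefSeq table of GRCh38.p14, used for names only. Where a gene had several kept probes, the brightest on average stood for it.

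IP/T, sponge minus EV and its change were formed on the log2 scale with Python 3.11.15, numpy 2.4.6 and pandas 2.3.3; the normexp alternatives used limma 3.58.1 (offset 50). Genes given in all channels were the highest and lowest IP/T of each class, the 3 extremes in T and in IP with the same sign in both dyes, and the immunoproteasome genes. Steps were tested on simulated data. Members, lists and motifs were chosen with earlier results of these data known. Depth does not apply to arrays, and their number limits the precision.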

Additional observations from a re-analysis of the deposited data

Results flagged for a closer look

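In 15 proteasome genes the sponge went with a lower signal in T and a higher signal in IP, in both dyes, so that the same contrast ran opposite ways in the 2 fractions. The difference between the fractions was not tested, since each fraction of each population is 1 sample. It equals the change in log2 IP/T. In the core it was 0.52 for PSMA4 (-0.20 ± 0.03 in T and 0.32 ± 0.03 in IP), 0.52 for PSMA7 (-0.22 ± 0.18 and 0.30 ± 0.09) and 0.29 for PSMA3 (-0.10 ± 0.07 and 0.19 ± 0.06). For the immunoproteasome gene PSMB9 it was 0.34 (-0.13 ± 0.17 and 0.21 ± 0.05). Among the ATPases it was 0.49 for PSMC5 and 0.24 for PSMC3. The non-ATPase subunits gave 0.48 for PSMD2, 0.41 for PSMD13, 0.31 for PSMD6, 0.24 for PSMD8 and 0.20 for PSMD11. The chaperones gave 0.38 for PSMG3, 0.37 for PSMD10 and 0.24 for PSMD9, and the activator PSME1 gave 0.12. For PSMA4 and PSMC5 the 2 orientations of this difference lay close together (SD 0.00 and 0.02), while for PSMA7, PSMD2 and PSMB9 they did not (SD 0.27, 0.25 and 0.22). These values are from the brightest probe of each gene, and the second PSMD9 probe was lower in IP in both dyes (-0.19 ± 0.21).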

How the results depend on the processing

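Under 14 alternatives the medians of the 45 genes, and the EV medians of the core, the 19S regulator and the immunoproteasome, kept their direction. Over them the EV median of log2 IP/T lay between -0.54 and -0.31 and the median change in IP/T between 0.10 and 0.21. With normexp, loess and Aquantile the median sponge minus EV in IP was 0.0739 instead of 0.13 and the EV median of the 19S regulator -0.20 instead of -0.37. From Cy3 labels alone, or from arrays with IP in Cy3, the median in IP was 0.15. From arrays with IP in Cy3 the sponge median of the 19S non-ATPases was 0.0007 instead of -0.27, with its sign turned. The cause was not tested. The median in T was between -0.11 and 0.00. The number of genes below 1 in both orientations in EV was 33 and ranged from 26 to 37. With normexp, loess and Aquantile, 7 instead of 12 genes had IP/T of at most 0.5 in EV, 1 instead of 2 at least 2 in sponge, 3 instead of 5 were higher in IP at 1.2-fold, 1 instead of 2 lower in T, 8 instead of 4 lower in IP in both dyes, and 3 instead of 0 higher in T and lower in IP. A single labelling or orientation has no second value to share its sign, so counts move more: 1 to 7 instead of 2 lower in T at 1.2-fold, up to 8 instead of 5 higher in IP, up to 19 instead of 11 with a higher IP/T, 1 instead of 0 with a lower one, up to 34 instead of 21 lower in T, 8 instead of 4 lower in IP, up to 28 instead of 15 lower in T and higher in IP, up to 4 instead of 0 the other way, up to 7 instead of 3 with IP/T of at most 0.5 in sponge, 2 instead of 1 with at least 2 in EV, and 12 instead of 6 above 1 in EV, up to 18 instead of 8 above 1 in sponge, up to 22 instead of 9 higher in T, and up to 12 instead of 6 with a lower IP/T in both orientations. With the mean over a gene's probes, 4 instead of 9 were higher in T and 1 instead of 6 had a lower IP/T. With PSMC3IP and PSME3IP1 counted, a choice made after seeing the data, the values recomputed stayed within the spread or 1.5 times of those for 45. Of the values of single genes, classes and counts over these alternatives, 1234 stayed within those limits, 172 moved beyond them and 1 turned its sign. No paired analysis was possible because each group holds 1 sample.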
